A study of Gallus gallus with 8 samples.

Results

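The regions described here had a peak of accessibility in the list of HD3 erythroblasts and in none of the lists of 3 other chicken cell types. They were chosen by measured values: the peak lists of all 4 cell types were merged wherever peaks overlapped by at least 1 bp, chromosomes 1 to 15, 17 to 26 and 28 were kept, and a region was counted as HD3-only when the HD3 list had a peak in it and no other list did. This gave 3575 HD3-only regions, which were 13.7% of the 26096 merged regions and 33.3% (95% Wilson interval 32.4% to 34.2%) of the 10727 regions with an HD3 peak. The rule itself fixes these 3 numbers, and nothing is read from them. The other 7152 regions with an HD3 peak, shared with at least 1 other list, are the comparison used throughout.

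Accessibility was measured by ATAC-seq in 8 samples, 2 for each cell type, all labelled wild type. The cell types were primary fibroblasts, the HD3 line labelled as chicken erythroblasts, red blood cells taken from embryos on day 10, and red blood cells of hens 28 to 38 weeks of age. One peak list was used for each cell type, with 11763 peaks in HD3, 17681 in fibroblasts, 12558 in the embryonic cells and 11395 in those of hens. HD3 is a single line, so its 2 samples are not separate animals, and how the sample pairs became single lists is not given in the sources used here. The peak names begin with HD32, Fb1CLEANED, eRBC2CLEANED and aRBC2CLEANED, so each list may rest on only 1 of the 2 samples. The HD3 names lack the word CLEANED, and what it stands for is not given in the sources used here.

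In ATAC-seq the transposase Tn5 inserts adapters where DNA is not covered by nucleosomes, so that promoters, enhancers and insulators appear as narrow peaks. Birds keep the nucleus of the red blood cell, which condenses as the cell matures and falls silent. HD3 cells are erythroid progenitors transformed by an avian erythroblastosis virus, whose oncogenes v-erbA, a mutated thyroid hormone receptor, and v-erbB, a truncated growth factor receptor, keep the cells dividing and hold back their maturation. The red blood cells of the embryo and of the hen are later stages of the same lineage, and fibroblasts are an unrelated connective tissue cell.

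Each cell type has 1 list, so the values carry no replicate error. The lists also chose the regions, and no test was made. Intervals given below cover counting error only, and neighbouring regions are not independent. The strength of a peak is its fold enrichment, the authors' ratio of the pileup of sequenced fragments at the summit to the local background. It is the authors' own value for each peak and was ranked within a list and not compared between lists. A region that a list lacks is one where the list holds no peak, and the lists hold no values outside their peaks. Missing peak numbers, described later, leave room for peaks that were called and are not listed.

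HD3-only regions were close in strength to the HD3 regions that other cell types shared. Their HD3 fold enrichment had a median of 7.98, with quartiles of 6.15 and 11.1 and a range from 3.24 to 32.5. The shared HD3 regions had a median of 8.78, with quartiles of 6.61 and 11.9 and a range from 3.72 to 45.0. The ratio of the medians was 0.909, with an interval of 0.891 to 0.938 from the binomial order statistics of the medians. It was 0.849 by −log10 p in place of fold enrichment. Among peaks with a −log10 q of at least 10 in all lists it was 0.993. That filter removes weak peaks from both groups and changes which regions count as HD3-only, and its part in this value was not tested.

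The strength of HD3 regions differed with their sharing pattern. HD3-only regions stood above the 2677 regions shared with 1 or both red cell lists and not with fibroblasts, which had a median fold enrichment of 7.33. They stood below the 4475 regions shared with fibroblasts, with or without red cells, whose median was 9.80. The 1117 regions of HD3 and embryonic cells had a median of 7.28, the 1447 of HD3 and both red cell types 7.42, and the 113 of HD3 and adult cells 6.65. With a fibroblast peak the medians were 9.03 in the 891 regions of these 2 lists, 9.40 in the 714 that embryonic cells shared, 9.11 in the 43 that adult cells shared and 10.2 in the 2827 regions of all 4 lists. The regions HD3 held alone were thus no weaker by the median than those it shared within its own lineage, and their upper quartile of 11.1 lay above the 9.55 of those regions.

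**Figure D1:**
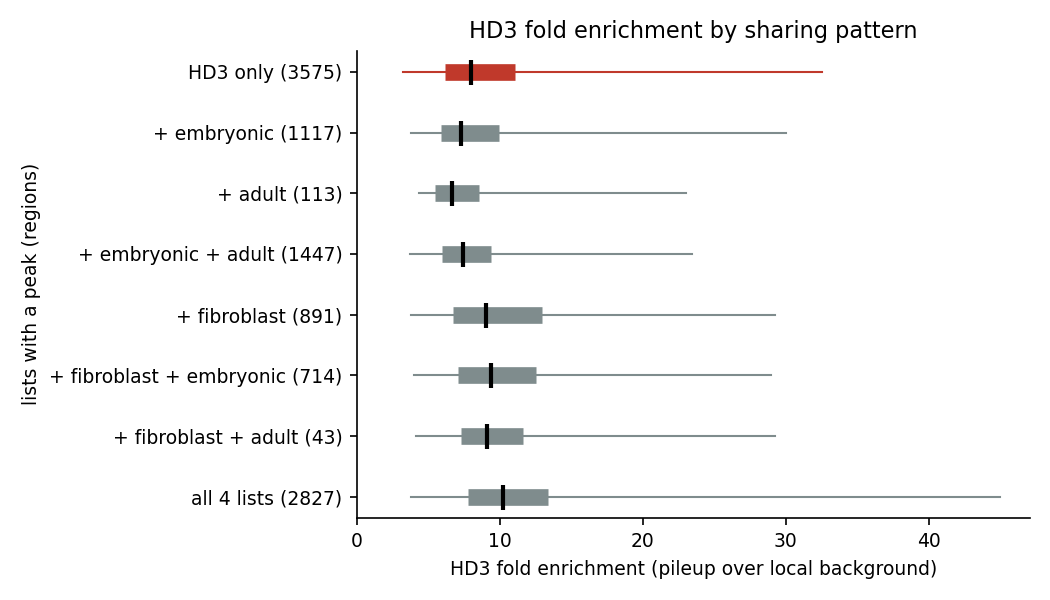
HD3 fold enrichment of regions with an HD3 peak, by the lists that share them, with the number of regions in brackets. Thin lines run from the lowest to the highest value, thick bars span the quartiles and black ticks are medians: HD3-only regions (median 7.98) sit above the patterns with red cells and no fibroblasts (6.65 to 7.42) and below those with fibroblasts (9.03 to 10.2).

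The HD3 list differed from the red cell lists in how its own regions were spread over its strengths. In 5 equal bins of HD3 regions from the weakest to the strongest, HD3-only regions made up 39.8%, 35.8%, 32.3%, 29.6% and 29.1%. In the embryonic list, the regions found in no other list fell from 54.3% of the weakest 20% to 2.95% of the strongest 20%, and in the adult list from 47.0% to 2.44%. In fibroblasts the shares were 67.1% and 33.1%. The Wilson interval of the strongest HD3 bin, 27.2% to 31.1%, lay far above those of the embryonic list (2.32% to 3.75%) and the adult list (1.82% to 3.26%) and just below that of fibroblasts (31.4% to 34.9%). The order of HD3 and fibroblasts turned with the processing: in lists shortened to equal length the shares of the strongest 20% were 32.2% and 26.6%, and among peaks past a −log10 q of 10 in every list 37.5% and 19.9%. The red cell shares stayed at or below 4.64% under these settings. The strongest sites of the red cells were therefore nearly always found in another list, whereas nearly 3 in 10 of the strongest HD3 sites were not. The embryonic and adult lists each have the other red cell list among those compared, and HD3 has no second list of its own stage. The part of this in the shares was not tested.

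**Figure D2:**
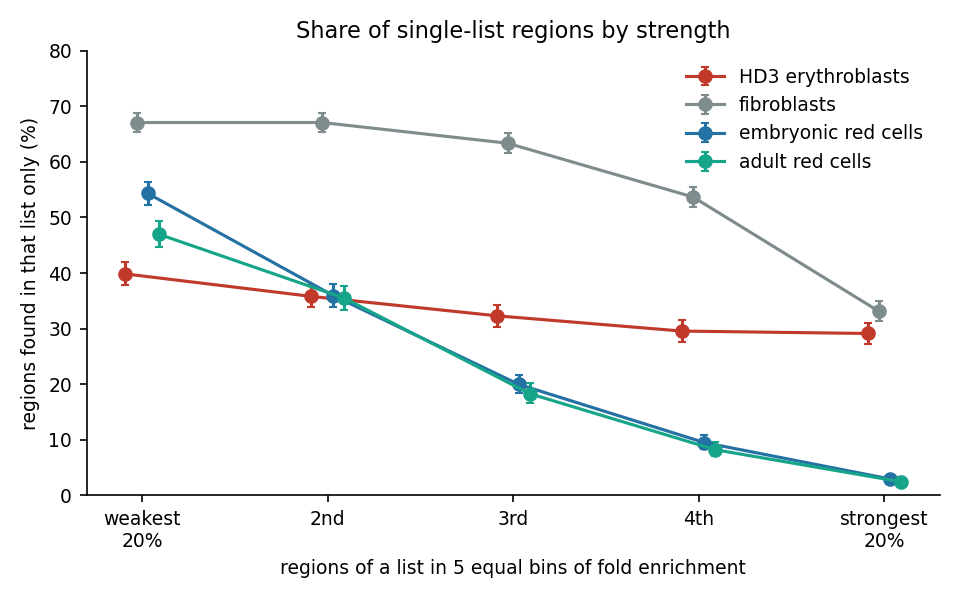
Share of the regions of each list that were found in that list only, in 5 equal bins of that list's fold enrichment, with 95% Wilson intervals. The HD3 line falls from 39.8% to 29.1%, while the embryonic and adult red cell lines fall to 2.95% and 2.44%.

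The same held at the very top of the lists. Among the 1000 strongest regions, 292 of HD3 were HD3-only, against 182 of fibroblasts, 23 of embryonic and 15 of adult cells that were found in 1 list. Among the 100 strongest, the numbers were 24, 10, 1 and 1. The strongest HD3-only region ranked 5 among all HD3 regions, whereas the strongest region of its own ranked 15 in fibroblasts, 73 in embryonic and 47 in adult red cells.

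The 10 strongest HD3-only regions had fold enrichments from 26.3 to 32.5, and 8 of them lay on chromosomes 1 and 2. Of all 3575 HD3-only regions, 787 lay on chromosome 1 and 539 on chromosome 2. Coordinates are those of the GRCg6a build and count from 1. The strongest was chr1:142908112-142908431, 320 bp wide, with a fold enrichment of 32.5 and a −log10 q of 100.3. Another of the 10 lay nearby at chr1:142936782-142937134, with a fold enrichment of 29.2. The nearest peak of another list was an adult red cell peak for both, 37.8 kb and 42.9 kb away, and the next HD3-only region lay 17.9 kb from the first and 10.1 kb from the second.

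The other strong regions differed in how near they lay to other sites. The region chr4:57877335-57877594 had a fold enrichment of 31.6 and lay 45.4 kb from the nearest peak of another list and 36.98 kb from the next HD3-only region, and chr3:102703458-102703704 reached 30.0 at 34.5 kb. On chromosome 2, chr2:1008754-1008984 had a fold enrichment of 29.8 and an adult red cell peak at 11.8 kb, chr2:93034056-93034319 had 28.5 and chr2:108841857-108842163 had 27.2. The last of these was the most remote of the 10, 404.5 kb from the nearest peak of another list and 224 kb from the next HD3-only region. On chromosome 1, chr1:155113936-155114219 had a fold enrichment of 29.5, chr1:189991751-189992136 had 26.9 and chr1:8979410-8979616 had 26.3. Of these 3, chr1:189991751-189992136 lay nearest to another list, 6.399 kb from a fibroblast peak with the next HD3-only region at 39.4 kb, and the first and the last lay 90.6 kb and 73.2 kb away.

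The number of fragments behind each peak was recovered from the deposited values. MACS2 computes the fold enrichment from the pileup and the background with 1 added to each, and the p-value from the Poisson distribution, so a pair of values fixes a whole number of fragments. All 3575 HD3-only regions gave a whole number, with a median of 14 fragments at the summit and a range from 6 to 88. A count of 14 has a 95% Poisson interval of 7.65 to 23.5, so a typical HD3-only region is known to no better than this. The shared HD3 regions had a median of 17. The strongest region had 78 fragments (61.7 to 97.3) over a background of 1.43, and chr1:189991751-189992136 had the most of all, 88 fragments (70.6 to 108) over a background of 2.31.

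The HD3 list rested on the thinnest coverage of the 4. The background that recurred most often among its peaks was 0.644 fragments, against 1.63 in the embryonic, 2.44 in the adult and 3.31 in the fibroblast list. The median HD3 peak had 16 fragments at its summit, against 23 for fibroblast peaks, 35 for embryonic and 40 for adult red cell peaks. Whole numbers were recovered for 99.10% to 99.98% of the peaks of each list, to within 0.0001 in −log10 p. Sequencing depth itself was not measured, and the part of this difference in fragment numbers in the shares by strength was not tested.

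HD3-only regions were narrow. Their HD3 peaks had a median width of 149 bp, against 185 bp in shared HD3 regions, a ratio of 0.805 with an interval of 0.781 to 0.835. Width grew with strength in both groups, from 103 bp and 113 bp in the weakest 20% to 209 bp and 262 bp in the strongest 20%, and HD3-only peaks were narrower in all 5 bins of strength. The same ratio was 0.786 for regions found in fibroblasts only, and 0.588 for those found in embryonic or in adult red cells only. Among shared HD3 regions the median width was 156 bp in those with red cells and no fibroblasts, and 206 bp in those with fibroblasts. It ran from 137 bp in the 113 regions of HD3 and adult cells to 229 bp in the 2827 of all 4 lists. The part of the 1 bp overlap rule in these widths was not tested. The summit lay near the middle, at a median of 47.7% of the width in HD3-only and 48.3% in other HD3 peaks.

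The widest HD3-only regions were not the strongest. They were chr8:334338-334978 with 641 bp and a fold enrichment of 15.4, chr1:184558843-184559468 with 626 bp and 8.45, and chr2:106303076-106303682 with 607 bp and 11.8. At the other end, the weakest 3 were chr11:19430612-19430699 with a fold enrichment of 3.24, chr11:19443527-19443673 with 3.41 and chr2:4450477-4450547 with 3.74. The first 2 of these had 31 and 29 fragments over backgrounds of 8.88 and 7.79, whereas chr2:4450477-4450547 had 8 fragments (3.45 to 15.8) over 1.41. The low folds on chromosome 11 thus came with a high background and not with few fragments.

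The density of HD3-only regions differed little between large and middle-sized chromosomes and was lower on the smallest, while that of shared HD3 regions rose as chromosomes became smaller. The chicken genome consists of a few large chromosomes and many small, gene-dense ones. HD3-only regions numbered 3.85 per Mb on chromosomes 1 to 5, 3.93 on 6 to 10 and 3.70 on 11 and up, with lengths taken to the last peak. Within the last class they numbered 4.23 per Mb on chromosomes 11 to 15 (3.99 without a segment of chromosome 11 described later), 3.16 on 17 and up and 2.81 on 21 and up. Shared HD3 regions rose from 6.41 to 8.52 and 11.3 per Mb over the 3 classes, and to 14.96 on 21 and up. HD3-only regions were therefore 37.5% (36.3% to 38.7%) of HD3 regions on chromosomes 1 to 5, 31.6% (29.5% to 33.7%) on 6 to 10 and 24.6% (23.0% to 26.3%) on 11 and up. By single chromosome the share ran from 39.7% on chromosome 1 to 8.43% (4.15% to 16.4%) on chromosome 25.

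A falling share was not particular to HD3. Fibroblast-only regions fell from 59.1% of fibroblast regions on chromosomes 1 to 5 to 51.9% on 11 and up. Adult-only regions fell from 24.3% to 20.3% of adult regions, and embryonic-only regions rose from 23.5% to 26.2% of embryonic regions. By density, the single-list regions of the other lists rose. Regions found in fibroblasts only rose mildly, from 8.03 to 9.64 per Mb between the first and the last class. Those of the embryonic red cells rose from 2.08 to 5.32 per Mb and those of the adult red cells from 1.76 to 3.57. In all, 65.6% of HD3-only regions (64.0% to 67.1%) and 54.6% of shared HD3 regions (53.4% to 55.7%) lay on chromosomes 1 to 5. Single-list regions on these chromosomes were 62.0% of the fibroblast, 47.7% of the embryonic and 53.4% of the adult ones.

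**Figure D3:**
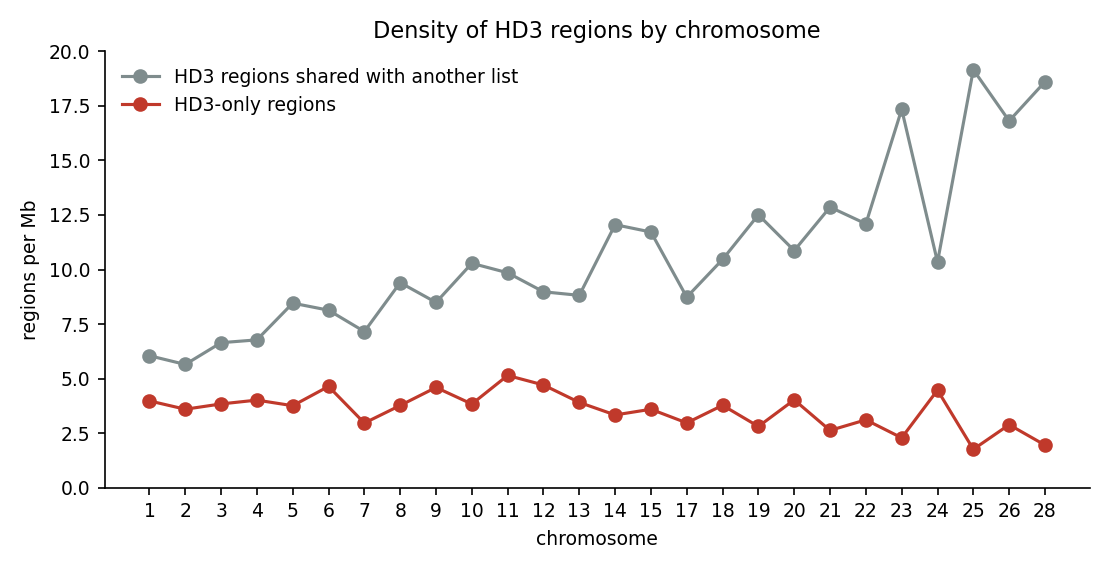
Regions per Mb on each kept chromosome, for HD3-only regions and for HD3 regions shared with another list. The shared regions climb towards the small chromosomes, to 19.2 per Mb on chromosome 25, while HD3-only regions lie between 1.76 and 5.15 per Mb, lowest on chromosome 25.

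Towards chromosome ends HD3-only regions were about as frequent as elsewhere, and shared HD3 regions were more frequent. Within 2 Mb of either end lay 9.99% of HD3-only regions (9.05% to 11.01%) and 18.1% of shared HD3 regions, where these ends make up 11.1% of the sequence. On chromosomes 1 to 5 alone these shares were 3.28% (2.64% to 4.09%) and 5.69% (5.003% to 6.457%), for 3.28% of the sequence. For regions found in 1 other list, the shares over all kept chromosomes were 15.8% in fibroblasts, 23.2% in embryonic and 35.5% in adult red cells.

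HD3-only regions lay farther from red cell peaks than from fibroblast peaks by the median. The nearest peak of any other list was a median of 16.5 kb away, against 19.3 kb for regions found in fibroblasts only, 3.48 kb for embryonic-only and 3.25 kb for adult-only regions. From HD3-only regions the median distance was 22.3 kb to a fibroblast peak, 44.2 kb to an embryonic and 64.3 kb to an adult red cell peak. The nearest other list was the fibroblast list in 55.5% of them, which is also the longest list. A peak of another list stood within 1 kb of 9.71% (8.78% to 10.7%), against 9.94% of fibroblast-only, 34.1% of embryonic-only and 31.7% of adult-only regions. The single-list regions of HD3 and fibroblasts thus resembled each other in spacing, and those of the red cells lay close to sites of other lists. For each red cell list, those other lists include the second red cell list. The rule leaves no red cell peak that overlaps an HD3-only region, and distances expected from the lengths of the lists were not computed.

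**Figure D4:**
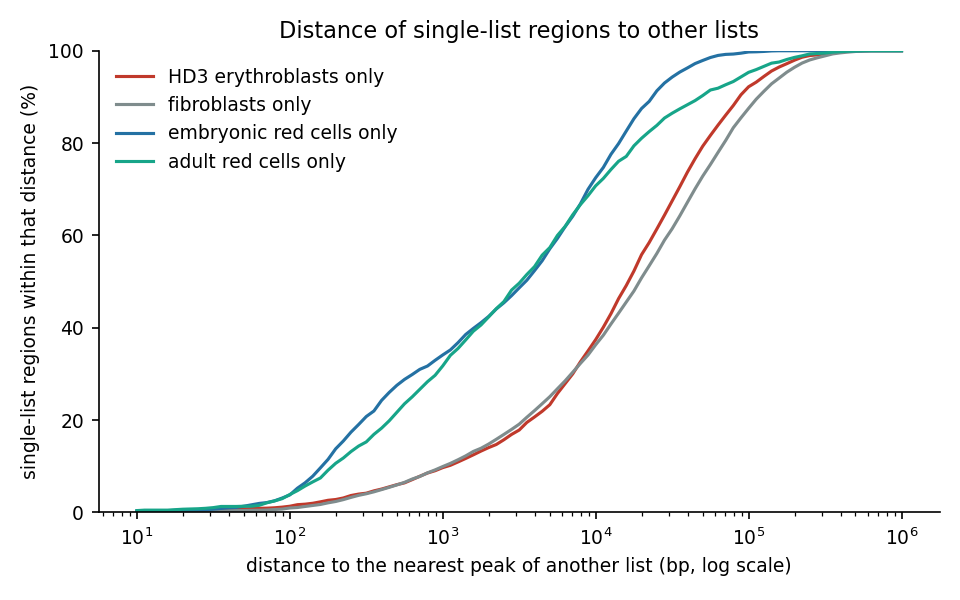
Cumulative share of regions found in 1 list only (y axis, %) against the distance to the nearest peak of another list (x axis, bp, log scale). The HD3 and fibroblast curves run together to the right of the red cell curves, with medians of 16.5 kb and 19.3 kb against 3.48 kb and 3.25 kb.

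HD3-only regions lacked peaks of each other list within 50 kb more often than shared HD3 regions did, a direction that the choice favours. The share that lacked both red cell lists was not computed. Within 50 kb of the summit, 47.0% of HD3-only regions had no embryonic peak, against 6.99% of shared HD3 regions. No adult peak was found there in 56.8%, against 17.3%, and no fibroblast peak in 26.5%, against 4.75%. A peak of another list that overlaps the region itself was counted here. A shared region has at least 1 by its definition, and an HD3-only region has none. Of the 7152 shared regions, 4475 held a fibroblast peak themselves. The shares of shared regions are therefore low at least in part through the choice, and how large that part is was not tested. Another HD3 peak was missing within 50 kb of 27.3% of HD3-only and 15.7% of shared regions. The choice touches this comparison too. HD3 peaks joined into 1 region through a peak of another list make that region shared, and each counts as a neighbour of the other. The list had 10942 HD3 peaks in 10727 regions, and the part of such joined peaks was not tested.

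A set of 279 HD3-only regions (7.80%) had no peak of any other list within 100 kb. Their median fold enrichment was 10.3, against 6.45 in the 347 regions with such a peak within 1 kb and 8.05 in the 2949 regions between. They were also wider, with a median of 180 bp against 120 bp and 150 bp, and 76.3% of them lay on chromosomes 1 to 5. The most remote was chr4:14931765-14931904, 583 kb from a fibroblast peak, with a fold enrichment of 10.0 and 19 fragments. Its neighbour chr4:14871823-14872007, 59.8 kb away, was the second most remote, at 557 kb with a fold enrichment of 9.13. The third was chr7:24672787-24672934, at 508 kb with a fold enrichment of 9.40.

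Few regions sat at the edge of the rule. The closest inside it were chr17:8884135-8884250 and chr3:62936997-62937216, each 1 bp from an embryonic peak, with fold enrichments of 5.37 and 5.21, and chr3:81516087-81516332, 4 bp from a fibroblast peak, with 7.53. The closest outside it overlapped another list by 1 bp (chr1:171005939-171006127, fold enrichment 4.26), 2 bp (chr1:180188213-180188429, 6.04) and 3 bp (chr7:11446023-11446416, 7.201). In all, 48 HD3-only regions had a peak of another list within 100 bp, and 24 shared HD3 regions overlapped one by no more than 20 bp.

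HD3-only regions followed one another along the chromosome, as did other single-list regions, but lay within 10 kb of one another less often than those. After an HD3-only region, the next HD3 region was HD3-only in 44.6% (43.0% to 46.2%), against 27.8% (26.7% to 28.8%) after a shared one. The chromosomes concerned had mean HD3-only shares of 34.9% and 32.6%. The contrast was also seen on chromosomes 1 to 5 alone, with 47.1% and 31.8%, and on chromosomes 11 and up, with 39.4% and 19.9%. The other lists showed it too, with 64.6% and 46.7% in fibroblasts, 29.3% and 23.0% in embryonic and 34.9% and 18.6% in adult red cells. Another HD3-only region lay within 10 kb of 15.97% (14.8% to 17.2%), whereas 35.5% of fibroblast-only, 33.6% of embryonic-only and 38.7% of adult-only regions had one of their own kind so near. Runs of 3 or more consecutive merged regions that were all HD3-only, with no region of any other list between them, held 631 regions, or 17.7%. The corresponding shares were 43.9% in fibroblasts, 13.3% in embryonic and 17.3% in adult red cells, so by this measure HD3 stood below fibroblasts and near the red cells. The classes differed in size: of the 26096 merged regions, 7887 were fibroblast-only, 3575 HD3-only, 2662 embryonic-only and 2010 adult-only. The part of these sizes in the run shares was not tested. The longest runs had 7 regions, and there were 3 of them.

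These 3 runs differed in length and strength. The run at chr12:7879989-8719447 spread over 839 kb and had a median fold enrichment of 13.4, with its highest at 20.5. At chr1:109424136-110338362 the 7 regions spread over 914 kb with a median of 6.71. The run at chr11:19088006-19155107 was packed into 67.1 kb with a median of 5.98.

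Another HD3-only region lay within 100 kb of 63.3% (61.7% to 64.9%), and dense groups were few. Of the fixed windows of 100 kb with any, 1985 held 1 HD3-only region, 514 held 2, 131 held 3, 29 held 4, 7 held 5 and 3 held 6. The 3 fullest were chr5:43200001-43300000, with 6 of its 7 HD3 peaks HD3-only, chr12:2900001-3000000, with 6 of 6, and chr11:19000001-19100000, with 6 of 11. The windows chr11:11500001-11600000 and chr1:9700001-9800000 followed with 5 of 5 each, and had the highest summed fold enrichment of the 7 with 5. The first of these 2 had no peak of any other list, and its HD3-only regions had fold enrichments from 7.63 to 13.4.

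Over whole windows of 1 Mb, HD3-only regions were most frequent where shared regions were of middling number. They occurred in 851 of 921 windows, with a median of 4 and a highest number of 23. Windows with 3 to 5 shared HD3 regions held a mean of 3.96 HD3-only regions, those with 6 to 10 held 4.34, and those with 11 to 20 held 3.91. The mean was 1.57 in the 51 windows without a shared region and 3.01 in those with 1 or 2. The 20 windows with more than 20 shared regions held a mean of 3.85 and a median of 2, and without the fullest window, described next, the mean of the other 19 was 2.84. In 215 windows HD3-only regions outnumbered shared ones.

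The fullest window of all, chr11:19000001-20000000 with 23 HD3-only regions, lay in a segment where the HD3 background itself was raised. Between chr11:18930235-19931000, 1001 kb long, 54 consecutive HD3 peaks had a background above 3 times the list's median, and this was the longest such run in the HD3 list. The median background of the peaks there was 7.57 times the median of the list in HD3, against 1.01 for fibroblast, 1.04 for embryonic and 0.962 for adult red cell peaks. It stepped from 1.56 fragments at the last peak before the segment to between 4.89 and 12.3 inside it, and to 2.64 at the first peak after it. The number of copies of this segment in the HD3 line was not measured in these files.

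**Figure D5:**
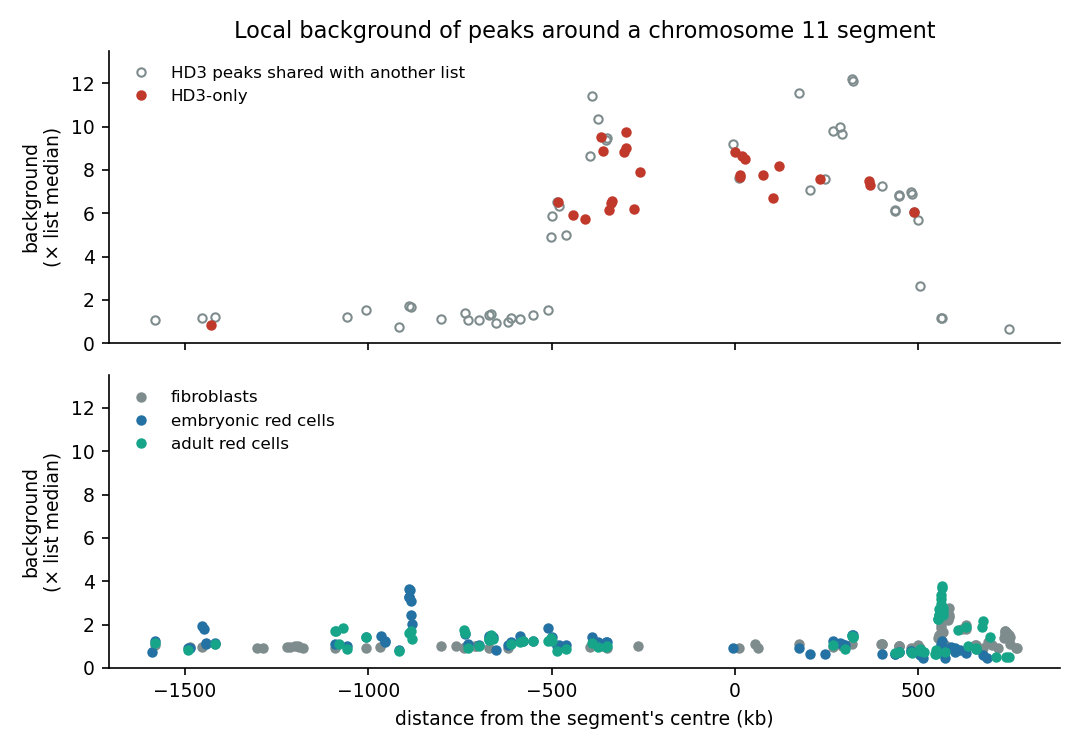
Local background of each peak, relative to the median of its list, against the distance from the centre of the chromosome 11 segment (kb), for HD3 peaks (top, HD3-only filled) and for the other 3 lists (bottom). Over 1001 kb the HD3 peaks have a median of 7.57 times the list median, and the medians of the other lists there lie between 0.962 and 1.04.

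The segment held 25 HD3-only regions among its 53 HD3 regions, or 47.2% (34.4% to 60.3%), against 31.6% (26.2% to 37.6%) on the rest of chromosome 11. This was 24.98 HD3-only regions per Mb, against 4.11 on the rest of the chromosome. Their fold enrichments were low, from 3.24 to 8.95, while they had 26 to 79 fragments at the summit with a median of 48. Of the 47 HD3-only regions with at least 50 fragments on the kept chromosomes, 11 lay in this segment. It holds the 2 weakest HD3-only regions by fold and 1 of the 3 longest runs. The part of the raised background in these counts was not tested.

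The HD3 background was raised less in 2 other places, which were chosen after their values were seen. On a stretch of 10 Mb of chromosome 1 that begins 12.6 Mb before its last peak, the background was 1.47 times the HD3 median and 0.839 to 1.07 times the median in the other lists. HD3-only regions were 81 of 137 HD3 regions there, or 59.1% (50.8% to 67.0%), against 38.2% on the rest of the chromosome. This stretch includes chr1:186000001-187000000, the window with the second highest number, 16. It also includes chr1:189991751-189992136, which was among the 10 strongest HD3-only regions and had the most fragments of all, 88. On chromosome 24 the background was 1.58 times the HD3 median, against 0.945 to 1.22 on the other kept chromosomes. HD3-only regions were 30.2% (21.9% to 40.0%) of HD3 regions there, against 19.2% on chromosomes 17 to 28 without chromosome 24 and 33.3% on all kept chromosomes. The single chromosomes behind the 19.2% ran from 8.43% on chromosome 25 to 27.1% on chromosome 20, which lies within the interval of chromosome 24.

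The other 3 runs of at least 5 HD3 peaks above 3 times the median, at chr2:52141128-52145701, chr5:55121636-55123999 and chr8:9102297-9300467, held no HD3-only region, over only 16 HD3 peaks. The chromosome 11 segment, the chromosome 1 stretch and chromosome 24 held 135 HD3-only regions in all, or 3.78%. Without them the HD3-only share of HD3 regions was 32.95%, and 15.5% of HD3-only regions lay within 10 kb of another.

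The peaks of each list carry running numbers in their names. These followed the genome on 34 of 34 chromosomes in each list, and some were missing: 6.70% of the fibroblast numbers, 15.7% of the embryonic, 28.7% of the adult and 40.3% of the HD3 numbers. A missing number between the peaks that flank an HD3-only region leaves room for a peak that was called and is not listed. No number was missing between the flanking fibroblast peaks in 84.0% of HD3-only regions, between the embryonic ones in 59.2% and between the adult ones in 36.1%. In all 3 lists together this held for 796 regions, or 22.3% (20.9% to 23.7%). The same shares were not computed for shared HD3 regions, so these values make no comparison with them.

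Those 796 regions were somewhat weaker and lay closer to other sites. Their median fold enrichment was 7.30, against 8.28 in the other 2779 and 7.33 in HD3 regions shared with red cells and not with fibroblasts. Their median distance to another list was 9.32 kb, against 18.9 kb in the other 2779, and 56.3% against 68.2% lay on chromosomes 1 to 5. The flanking peaks of a remote region span more sequence, and the part of this in these differences was not tested. The strongest of them was chr2:93684419-93684663, with a fold enrichment of 25.8 and 60 fragments, followed by chr2:125613590-125613802 with 23.6 and 50 fragments. Both were chosen for their values.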

How the data were processed

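Per the submitters' processing notes, the reads were handled with Bowtie2 2.3.5, SAMtools 1.9 and MACS2 2.1.2 on the build GRCg6a. Read filters, any Tn5 offset correction and the way the 2 samples became 1 list are not given in the sources used here. The deposited narrowPeak lists give each peak's interval and summit, its fold enrichment, which is the authors' ratio to the local background, and the authors' −log10 p and −log10 q values. Every −log10 q was at least 2.01.

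Positions were written from 1. The members, named regions and comparisons were chosen with earlier results of these data known. The named regions were the 10 strongest, the 3 widest, the 3 weakest, the 3 farthest from and the 3 nearest to another list, and the 5 windows of 100 kb with the most members, ties broken by summed fold enrichment. Region strength is that of its strongest HD3 peak. Fragment numbers assume the MACS2 definitions of fold and p, and cover peaks only. Fragments are not independent molecules where PCR copies remain, so intervals and counts carry counting error only. No p-value was computed.

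Merging was checked against bedtools 2.31.1, which found the same 3737 HD3-only regions on all chromosomes, and on simulated lists. Fragment recovery returned the right number in 1910 of 1910 simulated peaks. These were built from the same formulas, with backgrounds below those of the HD3-only regions in the chromosome 11 segment. They therefore check the code and not whether the deposited values follow the formulas. The code ran in Python 3.11.15 with SciPy 1.17.1, pandas 2.3.3, NumPy 2.4.6 and, for the plots, matplotlib 3.10.9.

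The gene table at hand was of another assembly, so peaks were not assigned to genes, the label of the HD3 line was not checked against marker promoters, and sequences, motifs and gene lists were not analysed here. Alternatives were other thresholds, list lengths, overlaps, peak extents, gaps and chromosomes, and leaving out dense windows.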

Additional observations from a re-analysis of the deposited data

How the results depend on the processing

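No paired analysis was possible because the lists are 1 to a cell type and no test was made. No ratio of medians crossed 1 under any alternative, but the order of HD3 and fibroblasts in the share of the strongest 20% turned under 2 of them. Of 103 comparisons of a result with an alternative, 64 stayed within the interval of the reported value (for the number of regions, within 1.5 times) and 39 did not. The HD3 values that moved follow by setting, beginning with the HD3-only share of HD3 regions where it moved. With a −log10 q of at least 10 in all lists these were 38.7%, a fold ratio of 0.993, 68.3% of HD3-only and 56.4% of shared regions on chromosomes 1 to 5, 11.9% with another within 10 kb, 4.07% with another list within 1 kb and 37.5% of the strongest 20%. With that threshold on the HD3 list alone the number of HD3-only regions was 1878, the share 29.6%, the fold ratio 0.9995, the chromosome shares 69.1% and 57.6%, the 10 kb share 9.48% and the 1 kb share 6.34%. In lists of equal length (11395 peaks) the share was 36.8%, the 1 kb share 8.08% and that of the strongest 20% was 32.2%. Requiring an overlap of 50% of the shorter peak gave 34.3% and a 1 kb share of 12.2%, and 200 bp around the summits gave a 1 kb share of 11.9%. With peaks within 1 kb counted as shared, the share was 30.1%, the fold ratio 0.947 and the width ratio 0.845. All chromosomes gave 32.4%, and chromosome shares of 62.7% and 50.1%. Without the 295 windows of 100 kb with at least 10 peaks in any list the share was 34.3%, and 55.8% of shared regions lay on chromosomes 1 to 5. With −log10 p in place of fold the ratio was 0.849. Chosen after seeing the data, the restriction to the 796 regions with complete numbering gave a fold ratio of 0.832, a width ratio of 0.757, 56.3% on chromosomes 1 to 5 and a 1 kb share of 12.7%, and leaving out the 3 places of raised background kept every value within its interval. The results on the strongest 20% were also added after seeing the data. In the other lists this share moved to 19.9% (fibroblasts) and 4.64% (embryonic) with the threshold on all lists, to 35.2% and 4.15% with it on HD3 alone, to 26.6% (fibroblasts) in lists of equal length and to 3.79% (adult) on all chromosomes. The causes of these moves were not tested. The motif window and the distance to annotated starts were not run, since no genome or annotation of the build was used, and the width ratio has no value with fixed 200 bp windows. Fragments at the summit were fewest in the HD3 list by the median, with a median of 14 at an HD3-only summit.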

Other observations

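On the chromosomes left out of the rule, another 162 regions had a peak in HD3 cells only, which brought the number on all chromosomes to 3737 of 31360 merged regions. Of these, 62 lay on chromosome Z, where they were 19.3% of 321 HD3 regions, and 16 lay on chromosome W, where they were 45.7% of 35. On chromosome 27 they were 21 of 118 HD3 regions and on chromosome 33 they were 15 of 134. Chromosomes 30, 31 and 32 held 21 of 74, 10 of 38 and 12 of 42, and chromosome 16 held 5 of 38.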
